A study of Mus musculus with 9 samples.

Results

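The transporters described here move amino acids across the plasma membrane. They were followed in SIX2 nephron progenitor cells whose genotype left 1 intact allele or none of a subunit of mitochondrial complex III. Members were the protein-coding genes whose symbol places them in solute carrier family 1, 3, 7, 36, 38 or 43, which gave 43 of the 26858 genes measured. Slc7a6os shares only the name and does not encode a transporter, so 42 transporters remained. They were grouped into 3 cationic carriers, 16 carriers of neutral amino acids and 5 acidic carriers. A further 12 were subunits of the exchangers of families 3 and 7 and their relatives, called exchangers below. The last 6 were genes whose amino acid transport is not established or which carry other substrates. Slc1a4 and Slc1a5 were placed by substrate among the neutral carriers, and the class counts depend on such placements. Slc38a7, Slc38a9 and Slc7a14 are known from lysosomes rather than the cell surface, and Slc36a1 is found at both sites.

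RNA-seq was performed on cells from mouse embryonic kidneys at age E18.5. All 9 libraries carried a transgene in which Six2 regulatory sequences drive a fusion of eGFP and Cre recombinase, and cells were collected by FACS for eGFP. Cre deletes a floxed segment of Qpc (listed as Uqcrq), which encodes a subunit of complex III. By genotype, the 4 controls (Six2-Qpc+/-, replicates 71, 72, 73 and 76) therefore lacked 1 allele and the 5 mutants (Six2-Qpc-/-, replicates 74, 75, 77, 78 and 79) lacked both. The comparison is thus of genotypes with no intact allele against 1, and no Cre-free library entered it. The gate selects cells with recent Six2 promoter activity, not a single cell type, and the sources used here give no litter, sex or batch for the libraries. Values below list the libraries in this order.

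Each control library held 22571729 to 23691130 counts over all genes and each mutant library 21040536 to 23986458. Levels are given as CPM (counts scaled to a library of 1000000, with TMM factors), and 3 counts corresponded to 0.117 to 0.153 CPM, depending on the library. Uqcrq itself was at 107, 76.8, 91.1 and 101 CPM in controls and 16.5, 28.2, 22.6, 20.3 and 19.0 CPM in mutants, a log2 fold change of -2.14 (SE 0.16, adjusted p = 2.09e-05) in edgeR's quasi-likelihood test. Mutants thus kept 0.227 of the control level, and the source of the remaining reads was not tested. The 9 nephron progenitor markers, Six2 among them, summed to 2123 to 2617 CPM in controls and 2133 to 2585 CPM in mutants, and 0 of 9 passed the edgeR test in either direction (1 higher and 1 lower at an unadjusted p below 0.05; DESeq2 called 0 and limma-voom 1, higher). Markers of other cells did move with genotype. The 9 stromal markers summed to 134, 131, 102 and 189.9 CPM in controls and 427, 677, 255, 281 and 332 CPM in mutants, with 6 of 9 called higher, and the 7 macrophage markers in the table (of 8 listed) to 2.30, 6.93, 2.66 and 9.32 CPM and 6.18, 32.6, 72.5, 30.0 and 32.6 CPM, with 2 of 6 tested called higher (5 by DESeq2 and by limma-voom). In both lists 0 markers in the table were at 0 in all 9 libraries. In such sorted bulk RNA, a change in the share of a cell type and a change in RNA per cell cannot be told apart, and nothing in the labels says that libraries of a genotype came from separate animals, so p-values measure the spread between these libraries.

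Amino acid transport across the cell surface rests on a few mechanisms. Cationic carriers let arginine, lysine and ornithine enter down the membrane potential. Sodium-coupled carriers, among them the acidic carriers of the SLC1 family and neutral carriers of the SLC38 family, concentrate amino acids inside the cell. The heteromeric exchangers join a glycoprotein heavy chain to an SLC7 light chain and trade an internal amino acid for an external one, which links leucine uptake to the export of glutamine and cystine uptake to the export of glutamate. Several of these genes are textbook targets of ATF4, the transcription factor of the amino acid response, and ATF4 can bind a composite element with C/EBP partners.

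Of the 43 members, 33 were expressed enough to be tested. Mutants were higher than controls for 10 of the 33 members (edgeR, adjusted p below 0.05), against 7.82% of all 14990 genes tested, and lower for 1 of 33, against 7.02%. At an unadjusted p below 0.05, 14 of the 33 were higher and 4 lower, against 2436 and 2273 of the 14990 genes. The genotypes did not overlap for 10 of 33 members, against 15.2% of genes tested. The 11 called members each met the expression minimum in either genotype alone, as did 28 of the 33 tested. Over those 28 the median log2 fold change was 0.26, against -0.01 over the 13211 genes that met it likewise, and 18 of 28 were above 0, against 49.3% of those genes. Slc7a8, Slc7a9 and Slc7a11 met it through the mutant libraries alone and are not in these figures.

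**Figure D1:**
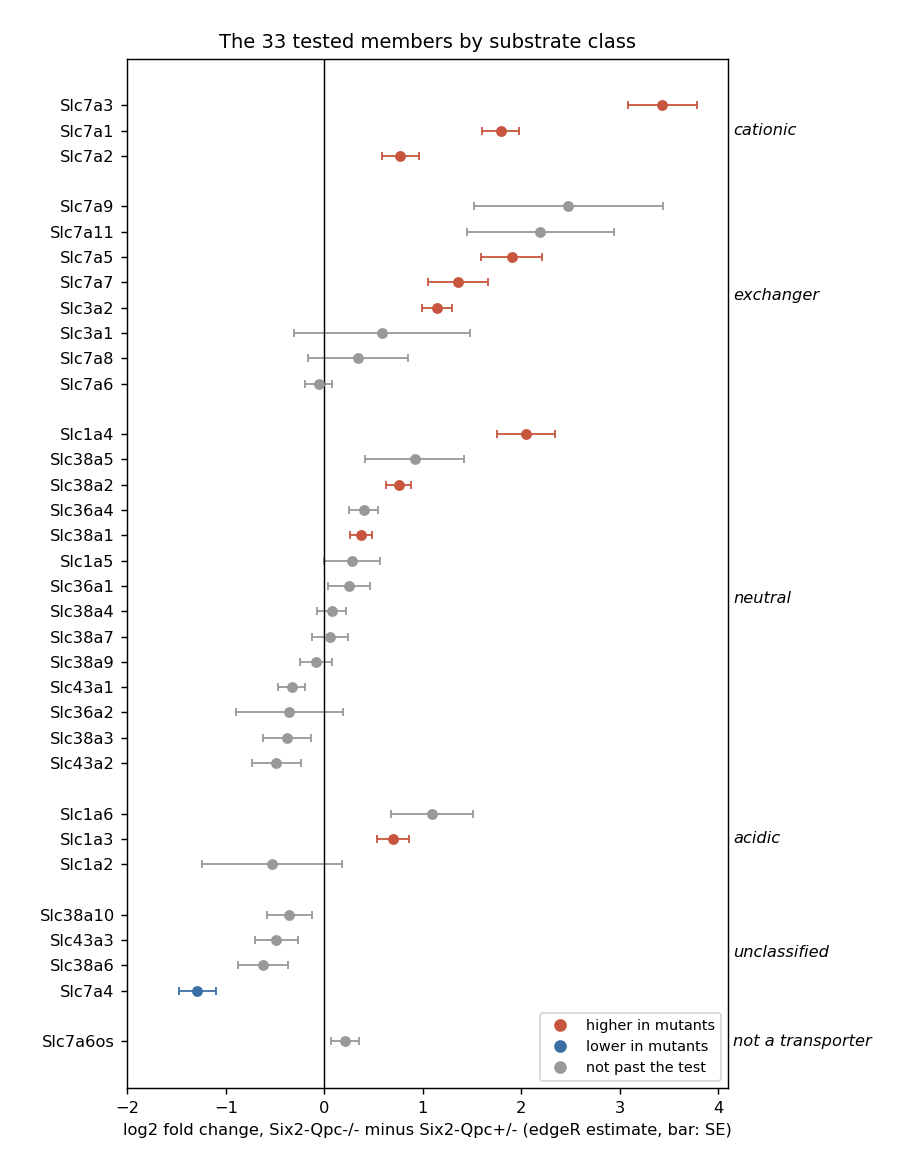
Log2 fold change (horizontal axis, mutants minus controls, edgeR estimate with its SE as a bar) of the 33 tested members, sorted by substrate class. The 3 cationic carriers were called higher, Slc7a3 with 3.43, the called members of the neutral, acidic and exchanger classes were higher, and Slc7a4 was the called member with a lower level, at -1.29.

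In the cationic class 3 of 3 carriers rose, against 7.82% of all genes tested, and their median log2 fold change was 1.79. The classes were set with earlier results of these data known. Slc7a4, a relative of these carriers without shown transport, was placed among the unclassified genes and was called lower. Slc7a3 (CAT3; chrX:101079210-101086020, build GRCm38) was at 7.63, 4.56, 10.2 and 6.03 CPM in controls and 33.2, 58.9, 103, 83.4 and 106 CPM in mutants. The mutant libraries spread widely, with replicates 77 and 79 at about the same high level and replicate 74 lowest, yet the lowest mutant lay above every control. Slc7a3 rose from 7.11 ± 2.43 CPM (SD, n = 4) to 76.9 ± 30.9 CPM (SD, n = 5), a log2 fold change of 3.43 (SE 0.35, adjusted p = 0.000275) and 10.8-fold, the largest change among the tested members. Slc7a1 (CAT1, the carrier that most cells use for arginine; chr5:148327410-148399904) was at 12.8, 14.7, 14.4 and 14.6 CPM in controls and 44.1, 34.0, 55.4, 43.8 and 66.7 CPM in mutants. Its controls lay close together and its mutants well above them, a log2 fold change of 1.79 (SE 0.19, adjusted p = 0.000275). Slc7a2 (CAT2, with splice forms of lower and higher affinity; chr8:40862396-40922308) was at 8.61, 8.96, 8.98 and 8.19 CPM and 13.6, 19.0, 10.6, 14.7 and 16.2 CPM. Its change was the smallest of the class, a log2 fold change of 0.77 (SE 0.19, adjusted p = 0.0169), and the genotypes again did not overlap. Exons of Slc7a2 share 635 bases with Gm26584 on the other strand, a gene at 0.253 to 1.13 CPM, and the libraries did not mark strand.

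The make-up of the class shifted with its level. Summed per length (CPM per kilobase of the deposited gene length), the cationic carriers went from 5.65 ± 0.871 (SD, n = 4) to 36.6 ± 12.5 (SD, n = 5), a ratio of 6.48. Slc7a3 made up 44.9% ± 8.75 of that sum in controls (SD, n = 4) and 74.5% ± 8.09 in mutants (SD, n = 5), while Slc7a2 made up 19.7% ± 2.82 and 5.78% ± 2.60. Within each library, the log2 ratio of Slc7a3 to Slc7a1 counts was -1.05 ± 0.54 (SD, n = 4) in controls and 0.57 ± 0.56 (SD, n = 5) in mutants, a difference of 1.62 without overlap (2-sided permutation test, exact p = 0.0159, adjusted 0.0278 over the 7 pairs compared; the smallest p that 126 arrangements allow is 0.00794). Slc7a3 thus changed more than Slc7a1. The call was lost without control replicate 73, although the difference was then larger (1.81). Fewer libraries allow fewer arrangements and raise the smallest possible p, so a lost call does not by itself show dependence on that library. This limit holds for each ratio call below.

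**Figure D2:**
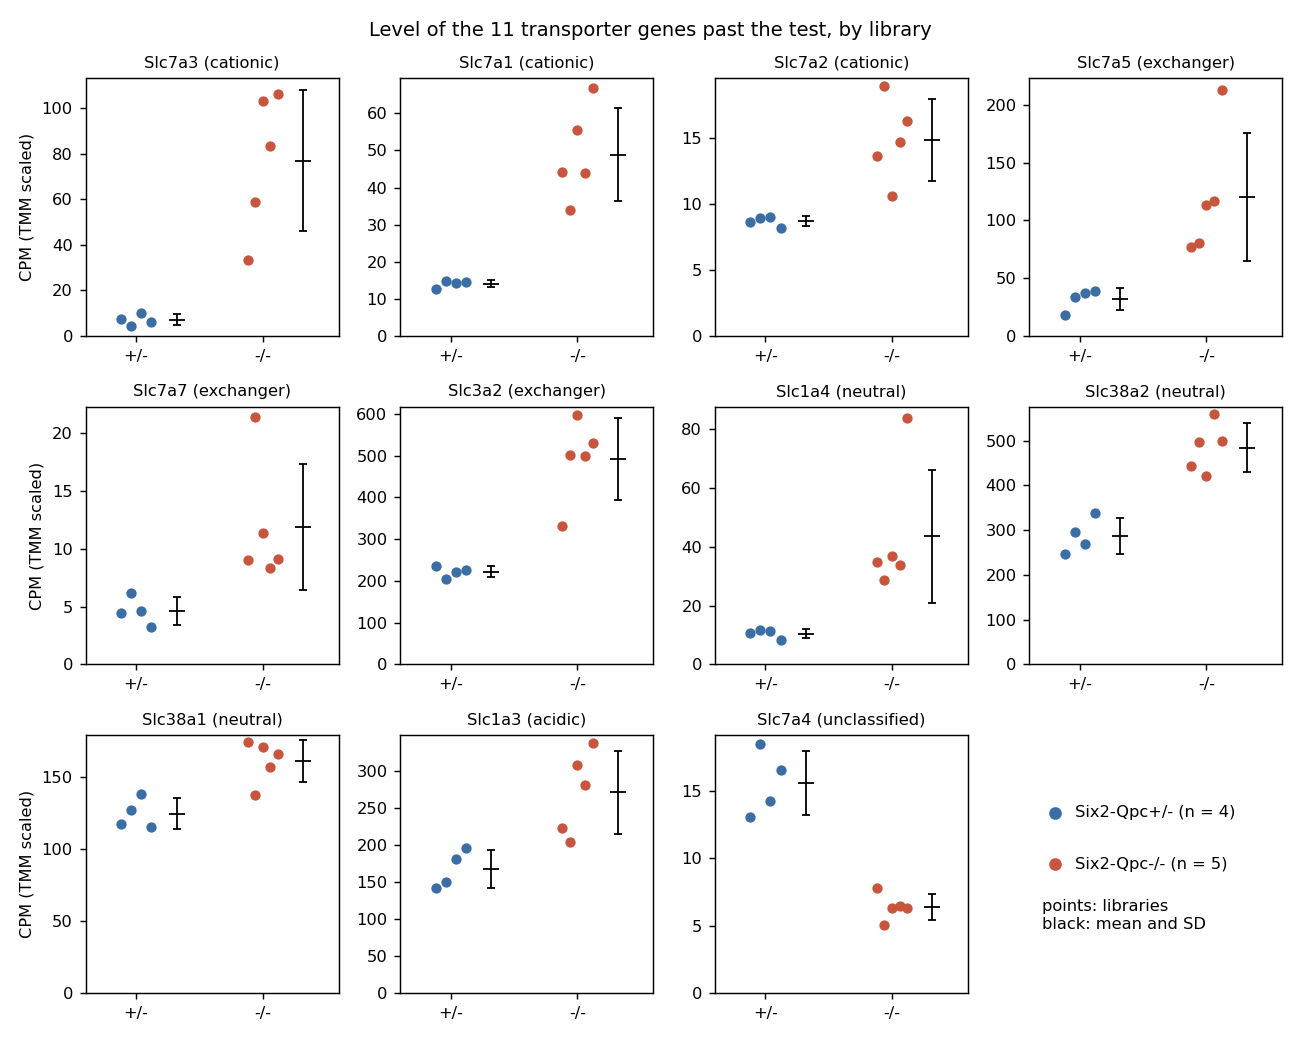
CPM (vertical axes, each from 0) of the 11 members past the test in 4 Six2-Qpc+/- and 5 Six2-Qpc-/- libraries, with points in replicate order and mean and SD in black. The genotypes did not overlap in 10 of the 11 panels, Slc38a1 being the exception, and single mutant libraries stood high for Slc7a7 (replicate 75, 21.3 CPM) and Slc1a4 (replicate 79, 83.8 CPM).

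Among the exchangers, 3 of 8 tested members rose, against 7.82% of all genes tested. By edgeR or by any alternative run 0 were lower, and 0 were lower at an unadjusted p below 0.05. Slc7a8, Slc7a9 and Slc7a11 met the expression minimum through the mutant libraries alone, so the lack of lower calls says little about them. The 3 that rose were the common heavy chain and 2 of its light chains. Slc3a2 (4F2hc or CD98, the heavy chain that carries the light chains to the surface; chr19:8706882-8723369) was at 236, 204, 222 and 226 CPM in controls and 331, 502, 597, 499 and 529 CPM in mutants. Mutant replicate 74 lay nearest to the controls and was still above them. Slc3a2 rose from 222 ± 13.5 CPM (SD, n = 4) to 492 ± 98.2 CPM (SD, n = 5), a log2 fold change of 1.15 (SE 0.15, adjusted p = 0.000812). Per length it was the most abundant member in both genotypes, at 78.9 and 175 CPM per kilobase.

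Slc7a5 (LAT1, the light chain for leucine and other large neutral amino acids; chr8:121881150-121907694) was at 18.1, 34.1, 37.4 and 38.9 CPM in controls and 76.7, 80.4, 114, 117 and 213 CPM in mutants. Control replicate 71 was the lowest and mutant replicate 79 by far the highest library, and the genotypes did not overlap. Slc7a5 rose with a log2 fold change of 1.90 (SE 0.31, adjusted p = 0.00287), and leaving out mutant replicate 79 gave 1.59. Its rank per length among the 33 tested members went from 12 to 4. The ratio of Slc7a5 to Slc3a2 was -2.85 ± 0.57 (SD, n = 4) in controls and -2.11 ± 0.50 (SD, n = 5) in mutants on the log2 scale, a difference of 0.74 that did not pass (permutation test, exact p = 0.0635, adjusted 0.0833), so the light chain was not shown to change more than its heavy chain. Without mutant replicate 75 the difference was 0.87 and passed.

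Slc7a7 (y+LAT1, which releases cationic amino acids in exchange for neutral ones; chr14:54369444-54409472) was at 4.47, 6.15, 4.64 and 3.25 CPM in controls and 9.03, 21.3, 11.4, 8.36 and 9.12 CPM in mutants. Mutant replicate 75 was far above the next library and the other mutants lay close together above the controls. Slc7a7 rose with a log2 fold change of 1.35 (SE 0.30, adjusted p = 0.0121), and with 1.03 without replicate 75, where it still passed. Macrophages are known to express Slc7a7. The macrophage marker sum was highest in mutant replicate 77 (72.5 CPM), at 32.6 CPM in replicate 75, and in replicate 74 (6.18 CPM) within the control range of 2.30 to 9.32 CPM, while Slc7a7 in replicate 74 was 9.03 CPM, above the highest control. The stromal sum was highest in replicate 75. In replicate 74 the proximal tubule marker sum was the highest of all libraries, at 15.3 CPM against 2.43 to 6.58 CPM in controls. The part of these cells in the level of Slc7a7 was not tested. In the annotation, exons of Slc7a7 also share 232 bases with Oxa1l on the other strand, a gene at 94.3 to 123 CPM, and without strand the reads in that stretch cannot be assigned.

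The nearest relatives of these light chains did not pass the test. Slc7a6 (y+LAT2, the paralog of Slc7a7) was at 70.98, 70.9, 70.3 and 61.9 CPM in controls and 81.4, 67.6, 55.4, 71.5 and 53.2 CPM in mutants, with overlapping genotypes and a log2 fold change of -0.06 (SE 0.14, adjusted p = 0.813). The log2 ratio of Slc7a7 to Slc7a6 was -3.92 ± 0.30 (SD, n = 4) in controls and -2.55 ± 0.62 (SD, n = 5) in mutants, a difference of 1.37 without overlap (permutation test, exact p = 0.0159, adjusted 0.0278), and the call was lost without any 1 of the controls (1.257 to 1.497). Per length, Slc7a6 made up 16.8% ± 1.33 of the summed exchangers in controls (SD, n = 4) and 7.99% ± 3.11 in mutants (SD, n = 5). Slc7a8 (LAT2, the paralog of Slc7a5) ranged from 0.341 to 1.77 CPM in controls and 0.576 to 2.40 CPM in mutants, with a log2 fold change of 0.34 (adjusted p = 0.688). The log2 ratio of Slc7a5 to Slc7a8 differed by 1.46 between genotypes (exact p = 0.0159, adjusted 0.0278, permutation test), with few Slc7a8 counts in most libraries (8 to 42 in controls and 13 to 53 in mutants), and the call was lost without control replicate 73 (1.23).

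**Figure D3:**
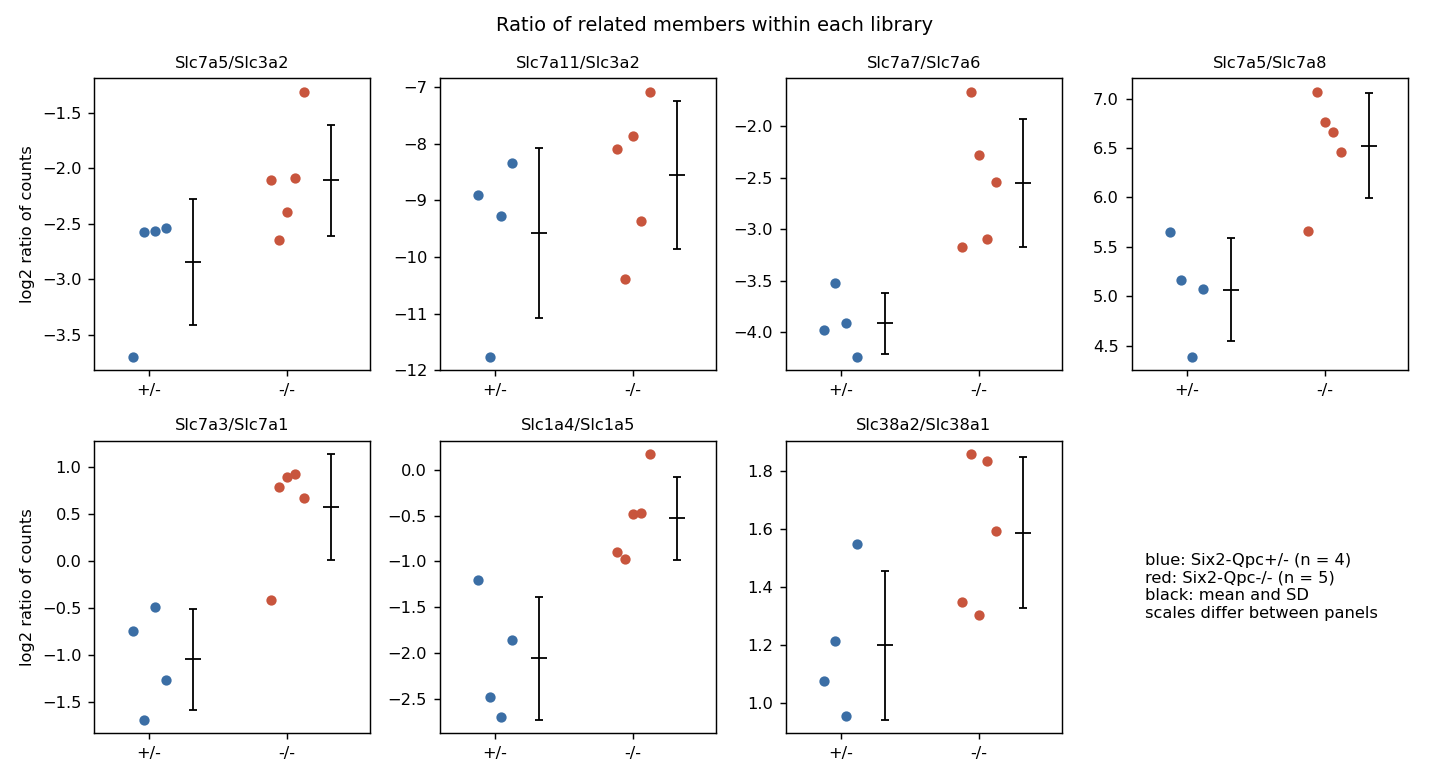
Log2 ratio of counts of 7 pairs of related members within each library (vertical axes, scales differ between panels), by genotype, with points in replicate order and mean and SD in black. The genotypes did not overlap for Slc7a7/Slc7a6, Slc7a5/Slc7a8, Slc7a3/Slc7a1 and Slc1a4/Slc1a5 and overlapped for the other 3 pairs.

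Slc7a11 (xCT, the light chain that imports cystine for glutathione synthesis) was scarce, with 11, 1, 8 and 16 counts in controls and 28, 8, 50, 15 and 86 counts in mutants. Mutant replicates 74, 77 and 79 had more counts than any control, and replicates 75 and 78 lay within the control range. The estimate was a log2 fold change of 2.19 (SE 0.75, adjusted p = 0.0637), which missed the threshold. Slc7a11 met the expression minimum of this test through the mutant libraries alone, a selection that favours genes higher in mutants. It passed with DESeq2, with limma-voom, and without mutant replicate 74 or 75, where 9.65%, 16%, 10.8% and 5.71% of all genes tested were called higher, and the estimates over all alternatives ran from 1.66 to 2.63 (adjusted p 0.0151 to 0.147). The log2 ratio of Slc7a11 to Slc3a2 did not differ between genotypes beyond the spread (1.02, permutation test, exact p = 0.341, adjusted 0.341).

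The apical exchanger of the proximal tubule, which reabsorbs cystine and cationic amino acids, is made of Slc3a1 (rBAT) and Slc7a9 (b0,+AT). Both were near the limit of detection. Slc7a9 had 1, 4, 0 and 8 counts in controls and 29, 0, 18, 24 and 12 in mutants, a log2 fold change of 2.48 (SE 0.96, adjusted p = 0.0951), and it passed only without mutant replicate 75. It too met the expression minimum through the mutant libraries alone. Slc3a1 had 2, 11, 7 and 15 counts and 14, 0, 34, 4 and 5 counts, with a log2 fold change of 0.59 (adjusted p = 0.694), and 601 bases of its exons lie opposite Prepl, a gene at 33.8 to 48.6 CPM. Of the members not tested, Slc7a12 had 16 counts in mutant replicate 74 and 29 in replicate 77 and 0 in the other 7 libraries, and Slc7a13 had 8, 0, 2, 0 and 0 counts in mutants and 0, 0, 0 and 1 in controls. Both are known from the proximal tubule, and the 7 proximal tubule markers in the table (of 8 listed) had their highest summed levels in the same libraries, at 15.3, 2.26, 9.38, 3.54 and 3.18 CPM in the 5 mutants against 2.43 to 6.58 CPM in controls. The part of tubule cells in these counts was not tested. Slc7a15 and Slc7a10 had at most 2 counts in any library.

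Of the 14 tested carriers of neutral amino acids, 3 rose, against 7.82% of all genes tested. In the edgeR test 0 passed as lower, where 1 was lower at an unadjusted p below 0.05. Limma-voom called 3 lower, with 16.4% of all genes tested called lower by limma-voom. Slc1a4 (ASCT1, for alanine, serine, cysteine and threonine; chr11:20302180-20332713) was at 10.7, 11.8, 11.3 and 8.35 CPM in controls and 34.7, 28.7, 36.8, 33.7 and 83.8 CPM in mutants. The mutants other than replicate 79 lay within a narrow range well above the controls. Slc1a4 rose with a log2 fold change of 2.05 (SE 0.29, adjusted p = 0.00121), or 1.67 without replicate 79. Slc38a2 (SNAT2, the carrier of small neutral amino acids that cells raise when starved of amino acids; chr15:96687394-96699698) was at 246, 295, 268 and 338 CPM and 443, 498, 421, 559.6 and 499.7 CPM. It rose with a log2 fold change of 0.76 (SE 0.13, adjusted p = 0.00296), from a high level, and was next to Slc3a2 in level per length in both genotypes. Slc38a1 (SNAT1; chr15:96571418-96642913), its paralog on the same chromosome, was at 117, 127, 138 and 115 CPM and 174, 137, 171, 157 and 166 CPM, with control replicate 73 just above mutant replicate 75. Its change was a log2 fold change of 0.37 (SE 0.11, adjusted p = 0.0394), and the call was lost in 9 of 17 alternatives, which were upper-quartile scaling, no filter on low counts, and the omission of any control or of mutant replicate 77, 78 or 79 (adjusted p 0.00467 to 0.0904 over all alternatives).

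Slc1a5 (ASCT2, the main glutamine carrier of many growing cells), the paralog of Slc1a4, was at 24.7, 65.6, 73.04 and 30.3 CPM in controls and 64.6, 56.2, 51.3, 46.7 and 74.4 CPM in mutants. Its controls were split, with replicates 72 and 73 at or above most mutants and replicates 71 and 76 below all of them, and its log2 fold change was 0.28 (adjusted p = 0.545). The log2 ratio of Slc1a4 to Slc1a5 was -2.06 ± 0.67 (SD, n = 4) in controls and -0.53 ± 0.45 (SD, n = 5) in mutants, a difference of 1.53 without overlap (permutation test, exact p = 0.00794, adjusted 0.0278), and the call was lost without control replicate 73 (1.32). The ratio of Slc38a2 to Slc38a1 differed by 0.39 on the log2 scale, within the spread of the libraries (exact p = 0.0714, adjusted 0.0833, permutation test). Slc38a4 (SNAT4; chr15:96994823-97055956), also on chromosome 15, ranged from 99.8 to 165 CPM in controls and 117 to 154 CPM in mutants and had a log2 fold change of 0.08 (adjusted p = 0.764).

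The remaining neutral carriers did not pass the test. Slc36a4, a proton-coupled family member, was at 24.4, 27.1, 28.3 and 36.6 CPM in controls and 37.3, 43.4, 35.8, 33.1 and 42.4 CPM in mutants, with a log2 fold change of 0.40 (adjusted p = 0.0838), and passed without control replicate 76 and with limma-voom. Slc36a1 (PAT1), Slc38a7 (SNAT7) and Slc38a9, members with a known lysosomal site, had log2 fold changes of 0.25 (adjusted p = 0.457), 0.06 (adjusted p = 0.870) and -0.08 (adjusted p = 0.762). Slc43a1 (LAT3) and Slc43a2 (LAT4), which let branched-chain amino acids cross by facilitated diffusion, had estimates below 0. Slc43a1 was at 37.8, 40.9, 40.2 and 37.8 CPM and 39.5, 31.0, 25.2, 28.6 and 31.2 CPM, a log2 fold change of -0.33 (SE 0.14, adjusted p = 0.124), and passed as lower with limma-voom and without mutant replicate 74, which lay within the control range. Slc43a2 had -0.49 (adjusted p = 0.205) and Slc38a3 (SNAT3) -0.38 (adjusted p = 0.304). Slc38a5 (SNAT5) had 0.92 (adjusted p = 0.233) at 0.511 to 1.98 CPM in controls and 0.765 to 4.21 CPM in mutants, and Slc36a2 (PAT2) had -0.36 (adjusted p = 0.696). Slc36a3 and Slc38a8 were not tested and had at most 4 counts in any library.

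The acidic class rested on a single gene. Slc1a3 (GLAST or EAAT1, a sodium-coupled importer of glutamate and aspartate; chr15:8634124-8710764) was at 142, 150.3, 181 and 196 CPM in controls and 223, 205, 308, 281 and 338 CPM in mutants. The genotypes did not overlap, although control replicate 76 and mutant replicate 75 lay close together. Slc1a3 rose from 167 ± 25.3 CPM (SD, n = 4) to 271 ± 56.3 CPM (SD, n = 5), a log2 fold change of 0.70 (SE 0.16, adjusted p = 0.0133). It made up 98.5% ± 0.575 of the summed level per length of the 5 acidic carriers in controls (SD, n = 4) and 98.5% ± 0.672 in mutants (SD, n = 5). Slc1a6 (EAAT4) had 12, 23, 21 and 17 counts in controls and 52, 29, 47, 16 and 31 counts in mutants, with a log2 fold change of 1.10 (adjusted p = 0.0897), and it passed when at least 10 counts were required in every library. Slc1a2 (GLT-1) had -0.53 (adjusted p = 0.652) on 2 to 43 counts in controls and 6 to 14 in mutants, and its sign changed between alternatives. Slc1a1 (EAAC1) and Slc1a7 (EAAT5) were not tested. Slc1a1 had 1, 5, 44 and 5 counts in controls and 4, 10, 11, 1 and 1 in mutants, and Slc1a7 at most 2. By edgeR 0 acidic members were lower, with 0 at an unadjusted p below 0.05, and DESeq2 and limma-voom also called 0 lower.

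**Figure D4:**
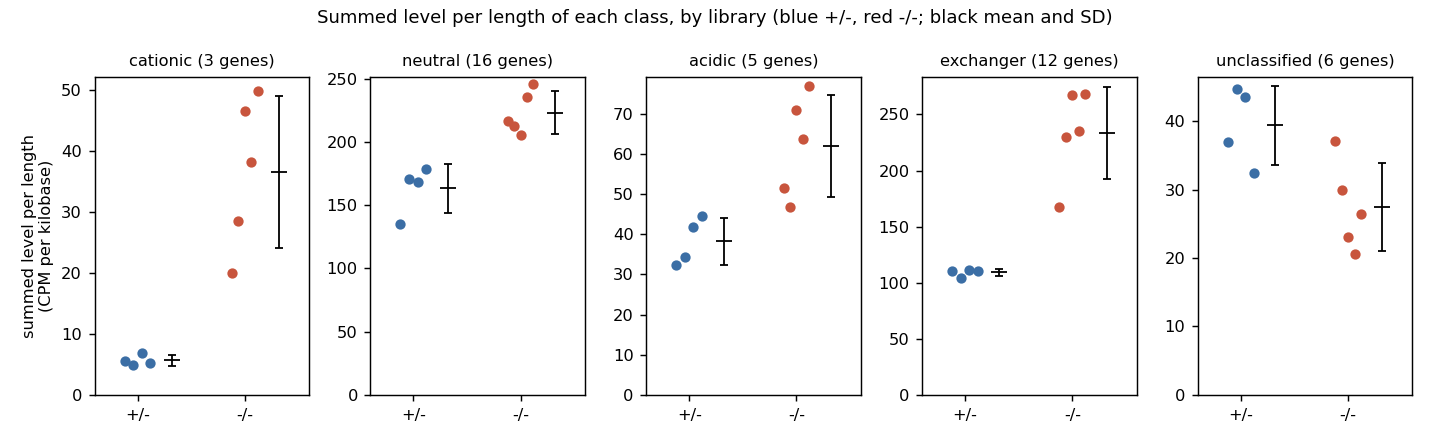
Summed level per length (vertical axes from 0, CPM per kilobase) of the genes of each class in every library, with points in replicate order and mean and SD in black. The genotypes were apart in the cationic, neutral, acidic and exchanger classes and overlapped in the unclassified genes, where mutant replicate 74 lay among the controls.

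The classes differed in how much RNA they added. Per length, the exchangers went from 109 ± 3.09 (SD, n = 4) to 234 ± 41.1 (SD, n = 5) CPM per kilobase, a ratio of 2.14, of which Slc3a2 made up 72.3% ± 2.85 in controls and 74.6% ± 4.28 in mutants. The neutral carriers went from 163 ± 19.4 (SD, n = 4) to 223 ± 16.8 (SD, n = 5), a ratio of 1.37, with Slc38a2 at 38.02% ± 2.80 and 46.9% ± 3.74 of the sum. The acidic carriers had a ratio of 1.62. These sums were not tested, since their largest members set them.

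The unclassified genes lay on the other side of 0: the 4 tested had estimates below 0 (median -0.55), 1 was called lower by edgeR, against 7.02% of all genes tested, and 0 were called higher by edgeR or by any alternative run. At an unadjusted p below 0.05 by edgeR, 3 were lower and 0 higher, against 2273 and 2436 of all 14990 genes tested. The boundary of this class was also set with earlier results known. Slc7a4 (chr16:17572018-17576998), a relative of the cationic carriers for which transport has not been shown, was at 13.1, 18.46, 14.3 and 16.6 CPM in controls and 7.80, 5.05, 6.27, 6.44 and 6.31 CPM in mutants. The mutants lay close together below every control. Slc7a4 fell from 15.6 ± 2.39 CPM (SD, n = 4) to 6.37 ± 0.976 CPM (SD, n = 5), a log2 fold change of -1.29 (SE 0.19, adjusted p = 0.00125). Exons of Slc7a4 share 554 bases with P2rx6 on the other strand, a gene at 0.0492 to 3.04 CPM. Slc38a6, Slc38a10 and Slc43a3, the last a carrier of purine nucleobases, had log2 fold changes of -0.62 (adjusted p = 0.112), -0.35 (adjusted p = 0.307) and -0.49 (adjusted p = 0.142). Limma-voom called the 4 genes lower, against 16.4% of all genes tested, and without mutant replicate 74 Slc43a3 passed as lower as well, where 10.4% of genes tested did. Slc38a11 had 3 counts in mutant replicate 74, 6 in replicate 79 and 0 elsewhere, and Slc7a14 at most 9 counts. Slc7a6os, which is no transporter, had a log2 fold change of 0.21 (adjusted p = 0.350).

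**Figure D5:**
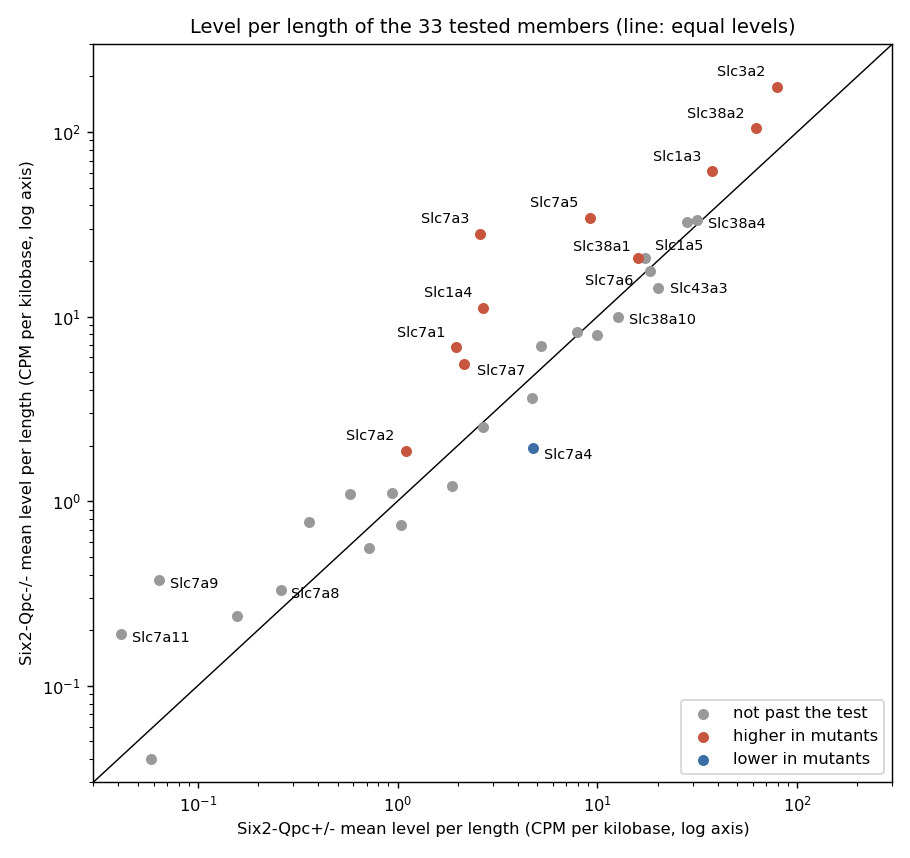
Mean level per length of the 33 tested members in Six2-Qpc+/- (horizontal) and Six2-Qpc-/- libraries (vertical), both in CPM per kilobase on log axes, with the line of equal levels. Slc3a2, Slc38a2 and Slc1a3 lead in both genotypes, and Slc7a3, Slc7a5 and Slc1a4 lie farthest above the line among the abundant members.

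The order of abundance per length changed in the middle of the range and not at its top. Slc3a2, Slc38a2 and Slc1a3 ranked 1, 2 and 3 in both genotypes. Slc7a3 went from rank 19 to 7, at 2.59 ± 0.885 (SD, n = 4) and 28.0 ± 11.2 CPM per kilobase (SD, n = 5). Slc1a4 went from rank 17 to 12 and Slc7a4 from 15 to 21. Neighbours in these orders, such as Slc7a5 (34.2 ± 15.7) and Slc38a4 (33.2 ± 3.97) in mutants, lay within their SDs of each other. Among the 10 members that rose, mutant replicate 79 was the highest mutant for 5, and replicates 75 and 74 were the lowest for 4 and 3.

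Genes of the amino acid response moved in the same libraries. Of the 11 listed, 9 were higher by edgeR, DESeq2 and limma-voom and 0 lower (at an unadjusted p below 0.05, 0 by edgeR and DESeq2 and 1 by limma-voom), and the median log2 fold change was 1.62. Several of them were picked by the study from these libraries, so the list is no independent evidence of its direction. Atf4 had a log2 fold change of 1.24 (SE 0.17, adjusted p = 0.000857). Asns, which makes asparagine, had a log2 fold change of 2.85 (SE 0.24, adjusted p = 6.88e-05), and Chac1, which degrades glutathione, a log2 fold change of 2.90 (SE 0.27, adjusted p = 0.000140). The list summed to 434, 356, 410.3 and 441 CPM in controls and 866, 1089, 1294, 1177 and 1335 CPM in mutants, with replicate 74 lowest and replicate 79 highest of the mutants. Of the 10 members that rose, replicate 74 was the lowest mutant for 3 and replicate 75 for 4, and replicate 79 was the highest for 5. Amino acid and peptide carriers of other families are counted beside them: 1 of 10 tested was higher and 0 lower by edgeR (2 lower at an unadjusted p below 0.05), with a median of -0.04. The gene called, the glycine transporter Slc6a9, was at 3.83, 9.50, 7.29 and 5.82 CPM in controls and 12.1, 8.06, 13.2, 10.5 and 24.5 CPM in mutants, a log2 fold change of 1.05 (SE 0.33, adjusted p = 0.0476), with overlapping genotypes. The call was lost in 6 of 17 alternatives, the omission of control replicate 71, 73 or 76 or of mutant replicate 77, 78 or 79 (adjusted p 0.00531 to 0.126 over the alternatives). DESeq2 called 2 of these carriers higher and 2 lower (9.65% and 8% of all genes tested), and limma-voom 1 and 2 (16% and 16.4%). Whether these carriers differ from the members as a set was not tested.

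Promoter sequence bears on these genes because the composite element bound by ATF4 with C/EBP partners has a core that can be written TGATGNAA. RefSeq promoters (build GRCm38.p6) were matched for 32 of 43 members, and the 250 bases before each start were searched for these 8 letters on both strands. They were found in 3.45% of the 32851 promoters in the table and 3.91% of the 27025 genes, and in 2 of 32 members (6.25%), Slc7a7 and Slc7a11. Slc7a7 rose and is shown for that reason. Slc7a11 missed the threshold, was chosen for display after its values were seen, and holds the letters on both strands within a short stretch. Capitals mark the matches, written 5′ to 3′ along the gene's strand.
Slc7a11, chr3:50443633-50443699, minus strand: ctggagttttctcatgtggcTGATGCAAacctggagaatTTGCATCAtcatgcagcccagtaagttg
Slc7a7, upstream of the start at 54417702, chr14:54417918-54417952, minus strand: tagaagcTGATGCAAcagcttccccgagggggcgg
Slc7a7, upstream of the start at 54417944, chr14:54418058-54418105, minus strand: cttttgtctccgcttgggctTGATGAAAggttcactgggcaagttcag
In Slc7a11 the matches begin 66 and 47 bases before the start, and in Slc7a7 they begin 243 and 141 bases before 2 different starts, both of which lie upstream of the span deposited for the gene. Of the 6 members that rose and had a promoter in the table, 1 held the letters, as did 1 of 18 that were tested and not called. Sequence after the start was not searched, so a gene without a match may hold the letters there. Slc7a7 had 5 promoters searched, more than any other member. Promoters of Slc7a2, Slc7a3, Slc7a5 and Slc38a1, which rose, were not used here. The letters are a description of sequence, and no binding was measured.

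The marker lists not given above were as follows. Of 6 tested early nephron markers 2 were lower, Lhx1 with a log2 fold change of -2.36 (edgeR adjusted p = 0.00102) and Wnt4 with -1.76 (edgeR adjusted p = 0.00580), and the list summed to 335 to 594 CPM in controls and 242 to 383 CPM in mutants. By edgeR 4 of these markers were lower and 0 higher at an unadjusted p below 0.05, and DESeq2 called 3 lower and limma-voom 4. The podocyte list summed to 18.1 to 36.1 CPM in controls and 20.3 to 40.4 CPM in mutants, the ureteric bud list to 44.9 to 63.4 CPM in controls and 27.3 to 49.4 CPM in mutants and the erythroid list to 1.39 to 2.66 CPM in controls and 1.52 to 2.50 CPM in mutants, with 0 calls by edgeR in each. At an unadjusted p below 0.05, 1 podocyte marker was higher and 1 lower, 1 ureteric bud marker was higher and 2 lower, and 0 erythroid markers passed, while DESeq2 called 2 and limma-voom 2 ureteric bud markers lower and limma-voom 1 podocyte marker lower. The proximal tubule list summed to 2.43 to 6.58 CPM in controls and 2.26 to 15.3 CPM in mutants. It also had 0 calls by edgeR, DESeq2 and limma-voom and 0 at an unadjusted p below 0.05. EdgeR tested only 2 of its 7 markers in the table, 3 of 5 podocyte, 3 of 7 ureteric bud and 1 of 7 erythroid markers. The lack of edgeR calls therefore says nothing about the untested markers. The endothelial list summed to 16.1 to 23.9 CPM in controls and 6.17 to 13.8 CPM in mutants, with Plvap lower and Pecam1 higher. Plvap, at 13.7 to 21.1 CPM in controls and 2.27 to 7.14 CPM in mutants, made up most of the control sum. The other markers were scarce, with higher means in mutants for Pecam1, Cdh5, Kdr and Tek and a lower mean for Emcn. The part of these cells in the levels of the transporters was not tested.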

How the data were processed

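Sorted SIX2 cells were profiled by RNA-seq, with 4 libraries of Six2-Qpc+/- controls and 5 of Six2-Qpc-/- mutants, and the table deposited by the authors was the starting point. Low-input RNA was amplified as poly(A) cDNA without marking strand. STAR, DESeq2 and the mm10 build are named in the submitters' processing notes, and versions and the counting tool are not given in the sources used here. The deposited values are raw counts per gene, FPKM and counts scaled by the authors (a signal per gene). FPKM recomputed from counts, gene length and library total came within 1% of the deposited value for 100% of 241722 values. The authors also deposited log2 fold changes, p-values and adjusted p-values of their own comparison, which were not used.

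Members, classes and gene lists were chosen with earlier results of these data known. Counts were filtered with filterByExpr, scaled by TMM and fitted over all genes with edgeR's quasi-likelihood test (version 4.0.16, robust, R 4.3.3), with Benjamini-Hochberg adjustment over 14990 genes and a threshold of 0.05. Levels per length are TMM-scaled CPM per kilobase of the deposited length. Within-library log2 ratios (counts plus 0.5) of 7 pairs were compared by a 2-sided exact permutation test of the genotype labels (126 arrangements), adjusted over the pairs. The adjustment does not cover the choice of pairs. A ratio also uses the same counts as the tests of its 2 members, so it is not separate evidence of their change. Alternatives used DESeq2 1.42.0, limma 3.58.1 (voom with quality weights), sva 3.50.0 with 1 surrogate variable, other size factors and filters, a Y-linked covariate, a minimum absolute log2 fold change of 1, and the omission of each library. Members past the threshold are given in every library and the others by ranges or counts. Other genes are named where they check the knockout, belong to a list and passed, or overlap a member. Of 43 member IDs, 42 equal GENCODE M21, Slc7a14 being the exception. Promoters came from RefSeq, and plots were drawn with matplotlib 3.10.9 in Python 3.11.15. Counting error alone sets the lower limit of 3 counts, and amplified reads are not independent molecules.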

Additional observations from a re-analysis of the deposited data

Results flagged for a closer look

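In 3 of 66 groups of libraries, a single library lay far from the others of its genotype by Dixon's criterion, where chance alone gives about 1 in 20, or 3.3 groups. Slc1a4 in mutant replicate 79 was at 83.8 CPM, with the next mutant at 36.8 CPM. Slc7a7 in mutant replicate 75 was at 21.3 CPM, with the next mutant at 11.4 CPM. Slc7a6 in control replicate 76 was at 61.9 CPM, with the next control at 70.3 CPM. Slc1a4 and Slc7a7 were called higher with and without these libraries.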

How the results depend on the processing

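Under 17 alternatives with a threshold on adjusted p alone, each of the 10 called members other than Slc38a1 kept its direction and call, and no call turned direction. With an absolute log2 fold change of at least 1, 6 members were higher, with 1 neutral and 0 acidic. The share of all genes at that limit is not given here, so these counts have no background beside them. Limma-voom called 7 members lower, 3 of them neutral and 4 unclassified, where 16.4% of all genes tested were called lower. Requiring at least 10 counts in every library made 2 acidic members higher, where 1072 of 12922 genes tested were called higher. DESeq2 called 2 other amino acid transporters higher and 2 lower. Leaving out 1 library at a time gave 1 to 3 members lower (3 without mutant replicate 74, where 10.4% of genes were lower), 0 to 1 neutral lower and 1 to 2 unclassified lower (the highest counts also without 74), 3 to 5 exchangers higher (5 without 75, adding Slc7a9 and Slc7a11), and 0 to 1 other transporters higher (0 without control 73 or 76 or mutant 77, 78 or 79, and Slc15a3 in place of Slc6a9 without control 71) and 0 to 1 lower (1 without mutant 74). Log2 ratio differences ran from 1.14 to 1.52 for Slc7a7/Slc7a6, 1.23 to 1.67 for Slc7a5/Slc7a8, 1.41 to 1.87 for Slc7a3/Slc7a1, 1.32 to 1.81 for Slc1a4/Slc1a5 and 0.45 to 0.87 for Slc7a5/Slc3a2. The first lost its call without any control and the next 3 without control 73. Fewer libraries also allow fewer arrangements and so raise the smallest possible p. The call for Slc7a5/Slc3a2 was made only without mutant 75. Slc1a5 passed only with the Y-linked covariate. The cause was not tested where none is given. No paired analysis was possible because the genotypes share no replicate number. Slc7a9, Slc7a11, Slc3a1, Slc1a2 and the untested members are limited by their counts. Slc7a9 and Slc7a11 also met the expression minimum through the mutant libraries alone, which favours genes higher in mutants.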
